A study of Homo sapiens with 12 samples.

Results

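The clustered protocadherins are cell-surface adhesion proteins encoded by neighbouring genes on human chromosome 5. They were taken here as the protein-coding genes named PCDHA, PCDHB, PCDHGA, PCDHGB or PCDHGC with their C-type members. The rule gave 52 of the 32152 genes in the RNA-seq data, of which 17665 were protein coding. The alpha cluster had 15 genes, the beta cluster 15 and the gamma cluster 22, with 12 of the GA, 7 of the GB and 3 of the GC kind. RNA came from 2 established triple-negative breast cancer cell lines with a mesenchymal appearance, MDA-MB-231 and Hs-578T. In each line, 2 libraries came from parental control cells, 2 from cells labelled ERK5-knockout (ERK5-ko) and 2 from cells labelled MEK5-DD (MEK5DD), 12 libraries in all. ERK5 is a mitogen-activated protein kinase encoded by MAPK7. It is switched on by MEK5, encoded by MAP2K5, and MEK5DD is a MEK5 that is active without upstream signals. The ERK5-ko cells were grown from single cells after CRISPR/Cas9 was aimed at MAPK7, so each carries the features of a clone, and how the MEK5DD cells were made is not given in the sources used here. Parental MDA-MB-231 cells were at passages 29 and 30 and parental Hs-578T cells at passages 83 and 84, while ERK5-ko cells were at passages 7 and 8 or 8 and 9, and MEK5DD cells at passages 10 and 11 or 8 and 9. Passage, clone and label therefore cannot be told apart. The labels do not say that the libraries of a group came from separate cultures, so p values measure the spread between these libraries, which may be technical.

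In the alpha and gamma clusters, each gene has its own large first exon, which encodes the extracellular cadherin repeats, the membrane span and part of the cytoplasmic tail, and this exon is spliced to a short set of constant exons that all genes of the cluster share. Beta genes consist of a single coding exon and have no constant part. Neurons are known to switch on a few of these genes per cell, from promoters that bind the insulator protein CTCF and are silenced by DNA methylation, and the resulting set of proteins lets a cell recognise its own branches. C-type genes (PCDHAC1, PCDHAC2, PCDHGC3, PCDHGC4 and PCDHGC5) lie next to the constant exons and are regulated separately from the others.

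Library totals were 20248162 to 27791195 reads. Libraries of 1 group differed by more than sampling noise. Their chi-square over genes, per degree of freedom, was 2.81 to 8.78 in 4 groups but 30.7 in parental and 41.9 in MEK5DD Hs-578T cells, so values of these 2 groups carried the widest spread. MAPK7 was 13.3 and 14.3 RPKM in parental MDA-MB-231 cells, 16.3 and 17.8 in those labelled ERK5-ko, 14 and 16 in parental Hs-578T cells and 17.8 and 18.1 in those labelled ERK5-ko. RPKM is the number of reads on a gene per kilobase of its model, scaled to a library of 1000000 reads, and RPM is the same without the division by length. MAPK7 RNA was thus not lower in libraries labelled ERK5-ko, which says nothing about the protein, and every direction below refers to the labels. The paper reports, by Western blot, far less ERK5 protein in the ERK5-ko cells of both lines than in parental cells. MAP2K5 was 12.9 and 13.6 RPKM in parental MDA-MB-231 cells and 188 and 184 in those labelled MEK5DD, a 13.6-fold difference (adjusted p = 3.31e-10, limma), but 14.6 and 16.9 against 21.3 and 23.8 in Hs-578T, a 1.42-fold difference (adjusted p = 0.00492). Both lines had mesenchymal markers, with the intermediate filament vimentin (VIM) at 1600 to 4070 RPKM, the estrogen receptor ESR1 at or below 0.12 RPKM and the progesterone receptor PGR at or below 0.348. ERBB2, the third receptor that the triple-negative label concerns, was 27.8 to 56.8 RPKM. The sum of 6 epithelial markers differed with the labels and lay at 1550 and 1650 RPKM in parental, 2610 and 2620 in ERK5-ko and 1170 and 1220 in MEK5DD MDA-MB-231 cells. In Hs-578T it was 190 and 266 in parental and 229 and 254 in MEK5DD cells, and the ERK5-ko libraries lay above both, at up to 627. KRT18 carried that difference, at 547 and 596 against 213 and 141, while KRT8 was 29.7 and 27.9 against 50.7 and 46.9. The sum of 6 mesenchymal markers was 3920 and 4140 RPKM in parental, 4330 and 4460 in ERK5-ko and 6260 and 6300 in MEK5DD MDA-MB-231 cells. In Hs-578T the mesenchymal sum was 7440 and 8610, 9280 and 9520, and 7000 and 8290 in the same order. The members did not move together in MDA-MB-231. Under ERK5-ko, CAV1 (997 and 976 against 703 and 712 in parental cells) and CD44 were higher. ZEB1 was lower there (22.6 and 19.1 against 30.2 and 31), and VIM, AXL and FN1 overlapped with parental cells. Under MEK5DD, CAV1 was lower (579 and 585) and the other members were higher. The sum of 8 neuronal markers, of which the tubulin TUBB3 was the largest in every library, was 19.1 to 36.7 RPKM for MDA-MB-231 and 44.8 to 105 for Hs-578T, with ELAVL3 and STMN2 at 0 in most libraries. Of the leukocyte markers, PTPRC was at most 0.396 RPKM and CD3E was above 0 in a single library. The sum of 3 endothelial markers was at most 0.886 RPKM in MDA-MB-231 and 2.99 to 6.52 in Hs-578T, where nearly all of it was PECAM1. The part of these differences in the results below was not tested, and in bulk RNA fewer cells that express a gene and less RNA per cell cannot be told apart.

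Most clustered protocadherin promoters are known to carry a short shared element with the core CGCT, at which CTCF binds. The sequences below are shown since the genes of each cluster are told apart by their own promoters and first exons, while reads on the constant exons are counted for every gene of a cluster. RefSeq promoters (GRCh38.p14) were found for 46 of the 52 genes. Each stretch holds 40 bases of the strand of the gene, with the CGCT core in capitals, from genes with a high RPKM in their cluster, PCDHGC4 among them only through its short gene model, and from PCDHGA4, which had own reads in both lines. Gamma stretches were placed by the string CGCTGT, found in 8.83% of all promoters. The PCDHGC4 stretch is thus shown as a string match only, and CTCF binding was not tested for any stretch.
PCDHA6, chr5:140827895-140827934: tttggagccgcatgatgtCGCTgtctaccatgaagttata
PCDHB2, chr5:141094542-141094581: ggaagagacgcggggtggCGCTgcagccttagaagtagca
PCDHB16, chr5:141182308-141182347: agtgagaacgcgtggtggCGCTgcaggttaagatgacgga
PCDHB15, chr5:141245312-141245351: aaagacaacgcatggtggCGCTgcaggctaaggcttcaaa
PCDHGA4, chr5:141354958-141354997: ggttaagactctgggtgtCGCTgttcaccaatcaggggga
PCDHGB2, chr5:141359919-141359958: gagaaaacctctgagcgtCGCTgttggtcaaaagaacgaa
PCDHGC3, chr5:141475878-141475917: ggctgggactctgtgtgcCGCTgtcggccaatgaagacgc
PCDHGC4, chr5:141484950-141484989: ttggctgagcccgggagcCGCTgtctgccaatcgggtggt

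The letters around the core differed by cluster. Searched on both strands over the 250 bases before the start, GATGTCGCT was found in 9 of 13 alpha promoters and in 0.0854% of all 35116 promoters, GGTGGCGCT in 12 of 13 beta promoters and 0.41% of all, and CGCTGT in 17 of 20 gamma promoters, 7 of 13 alpha promoters, 1 of 13 beta promoters and 8.83% of all. The core CGCT alone was found in 64.8% of all promoters, and it is part of each longer string. The core lay 38 to 81 bases before the start in alpha, 11 to 79 in beta and 39 to 199 in gamma genes. The 3 strings were read from these promoters, so their presence there is a description. The windows of PCDHA9, PCDHA11, PCDHAC1, PCDHAC2, PCDHB8, PCDHGB3, PCDHGB7 and PCDHGA11 did not hold the string of their cluster. The PCDHA6 stretch above holds both the alpha and the gamma string, which overlap in it. PCDHA3, PCDHA13, PCDHB6, PCDHB11, PCDHGA12 and PCDHGC5 had no entry.

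The shared constant exons set how the counts can be read. In GENCODE 29 (GRCh38, plus strand of chromosome 5), all 15 alpha genes have the exonic stretches chr5:140978949-140979007, chr5:140982475-140982563 and chr5:141009627-141012344, which come to 2866 bases. All 22 gamma genes have chr5:141494807-141494865, chr5:141505393-141505481 and chr5:141510947-141512979, which come to 2181 bases. The last stretch of each set ends with the untranslated part of the message. Whole reads could be recovered from the deposited values for every gene, and most gamma genes had nearly the same number of reads in a library. A read on a constant exon was thus counted for every gene of its cluster, and such reads cannot be assigned to a promoter. The reads of a gene beyond the lowest gene of its cluster in the same library were taken as its own reads. They may be understated, since the lowest gene may have own reads too, and PCDHGB4 and PCDHGA8 share further exonic sequence with each other (4447 shared bases each), as do PCDHA2 and PCDHA3 (3428 each) and PCDHA10 and PCDHA11 (2924 each). Beta genes share no exonic bases with other members. PCDHB8, PCDHB9, PCDHB14, PCDHB15 and PCDHB16 overlap another gene on the same strand by 169 to 432 bases. Beta coding sequences are similar to each other, and how reads with several matches were handled is not given in the sources used here, so reads may be split between paralogs. PCDHB2, PCDHB3, PCDHB5, PCDHB6, PCDHB7, PCDHB10, PCDHB11, PCDHB15 and PCDHB16 overlap a gene on the opposite strand by 32 to 815 bases, and whether counting used the strand is not given either.

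Of the 3 clusters, gamma carried the most reads in both lines. The lowest gamma gene, PCDHGC4 in 10 of 12 libraries, had 598 and 731 reads in parental, 727 and 788 in ERK5-ko and 420 and 542 in MEK5DD MDA-MB-231 cells. It had 2422 and 2784 reads in parental, 1837 and 1673 in ERK5-ko and 1853 and 2389 in MEK5DD Hs-578T cells. Between 9 and 17 of the 22 gamma genes lay within 5% of that number in each library, so the 22 rows repeat close to a single measurement of the constant exons. Scaled to the library, the common part was 25.2 ± 1.49 RPM (SD, n = 2) in parental, 31.9 ± 0.457 in ERK5-ko and 18.5 ± 1.47 in MEK5DD MDA-MB-231 cells. The 3 groups of MDA-MB-231 libraries did not overlap and were highest under the ERK5-ko label. In Hs-578T it was 120.0 ± 20.1 in parental, 69.5 ± 0.67 in ERK5-ko and 104 ± 17.6 in MEK5DD cells. Here the ERK5-ko libraries lay below all others, and parental and MEK5DD libraries overlapped.

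**Figure D1:**
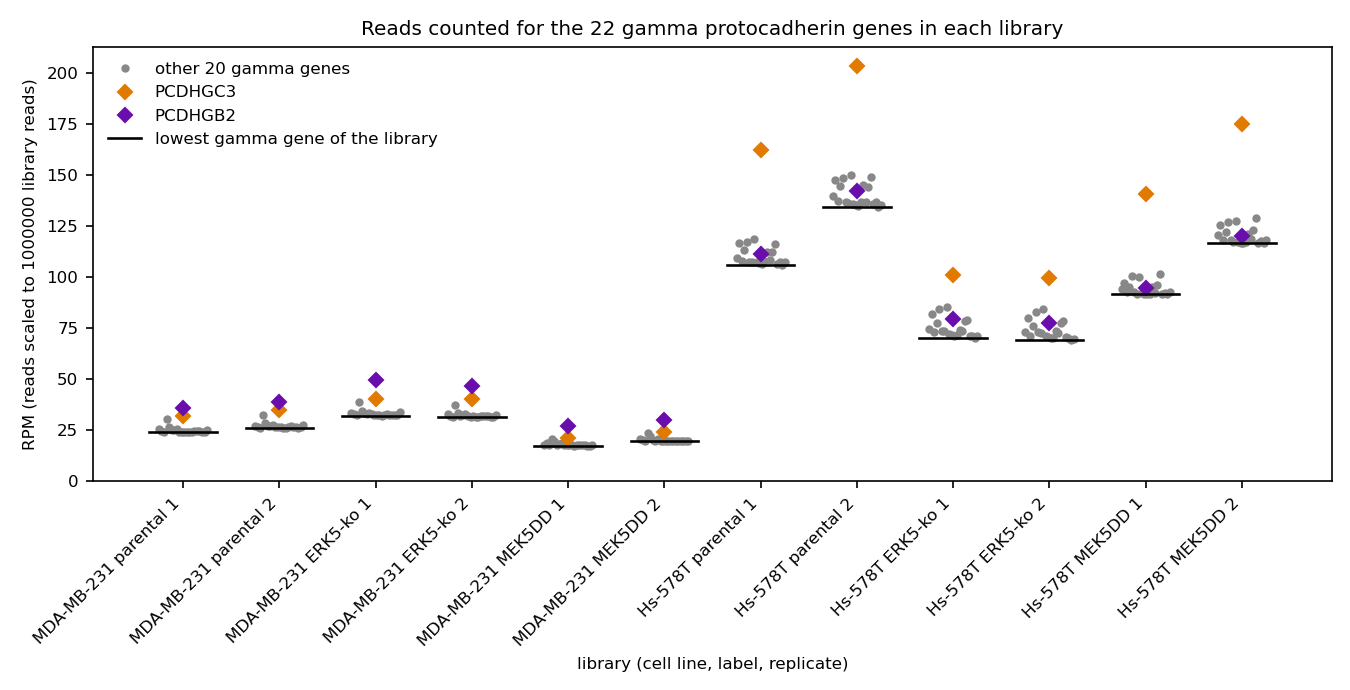
Reads counted for each of the 22 gamma genes in the 12 libraries, in RPM; each point is 1 gene, diamonds mark PCDHGC3 and PCDHGB2, and the line marks the lowest gene. Between 9 and 17 of the 22 genes lie within 5% of the line in each library, PCDHGB2 stands above PCDHGC3 in the 6 MDA-MB-231 libraries, and PCDHGC3 stands far above the other genes in the 6 Hs-578T libraries.

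Beyond the common part, the reads were spread over different gamma genes in the 2 lines. PCDHGC3, a C-type gene that is widely expressed outside neurons (ENSG00000240184.6, chr5:141475947-141512979), had 197 and 238 reads beyond the lowest gene in parental, 178 and 213 in ERK5-ko and 90 and 130 in MEK5DD MDA-MB-231 cells. In Hs-578T it had 1281 and 1427, 810 and 738, and 994 and 1201 reads in the same order of labels. The ERK5-ko libraries were the lowest of Hs-578T and the MEK5DD libraries the lowest of MDA-MB-231, without overlap with the others. PCDHGB2 (ENSG00000253910.2, chr5:141360042-141512979) had the most own reads in MDA-MB-231, with 284 and 351 in parental, 393 and 372 in ERK5-ko and 235 and 286 in MEK5DD cells. In Hs-578T, PCDHGB2 had 117 and 160, 252 and 205, and 59 and 76. Of all gamma reads beyond the common part, PCDHGB2 took 32.9% in parental MDA-MB-231 and 3.85% in parental Hs-578T cells, while PCDHGC3 took 22.5% and 38.0%. PCDHGB1 followed in MDA-MB-231 with 79 to 172 reads. In Hs-578T the next were PCDHGA6 with 167 to 403, PCDHGA4 with 181 to 377, PCDHGB7 with 198 to 297 and PCDHGA2 with 111 to 312. PCDHGC5 had 9 to 41 own reads in MDA-MB-231 and 19 to 35 in Hs-578T. PCDHGC4, a C-type gene known for a role in the survival of neurons, had at most 4 reads above the lowest gene in any library, although its short gene model gave it 31.4 to 61.1 RPKM in Hs-578T cells.

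Summed over the cluster, reads beyond the lowest gene came to 36.7 ± 0.411 RPM (SD, n = 2) in parental, 41.7 ± 3.68 in ERK5-ko and 26.6 ± 1.67 in MEK5DD MDA-MB-231 cells. In Hs-578T the sums were 165 ± 32.6, 136 ± 3.08 and 120.0 ± 22.9. The MEK5DD libraries were the lowest of MDA-MB-231, and the Hs-578T sums spread too widely to set MEK5DD apart from ERK5-ko cells. A fit on these own reads, limma voom with reads of at least 10 in at least 2 libraries, was chosen after seeing the data and is given beside the deposited values. In it PCDHGC3 fell by 1.02 on the log2 scale in ERK5-ko against parental Hs-578T cells (SE 0.122, adjusted p = 6.76e-05), while PCDHGB3 rose by 1.46 (adjusted p = 0.0061) and PCDHGA5 by 1.11 (adjusted p = 0.022), and 18 of the 21 gamma genes tested were not called. In that fit 11.1% of all genes were higher and 5.74% lower. Of the 21, 9 reached 10 own reads only in Hs-578T libraries, so their calls in that line rest partly on the filter. Among them, PCDHGA8, PCDHGA11 and PCDHGB4 did so only in parental and ERK5-ko libraries. Their calls in both comparisons with MEK5DD Hs-578T cells are thus partly set by the filter. In MEK5DD against parental MDA-MB-231 cells PCDHGC5, with 9 and 11 own reads against 27 and 37, fell by 1.60 (adjusted p = 0.00354) and PCDHGA10 by 2.12 (adjusted p = 0.0218), where 8.71% of all genes were lower. PCDHGC3 differed by -0.97 (adjusted p = 0.00111), just short of the fold threshold. Of the 21, 5 fell and 0 rose in MEK5DD against parental Hs-578T cells, where 3.37% of all genes were lower. In ERK5-ko against MEK5DD cells 4 of 21 were higher for MDA-MB-231 and 13 for Hs-578T, and 0 were lower for either, where 18.8% and 17.7% of all genes were higher.

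**Figure D2:**
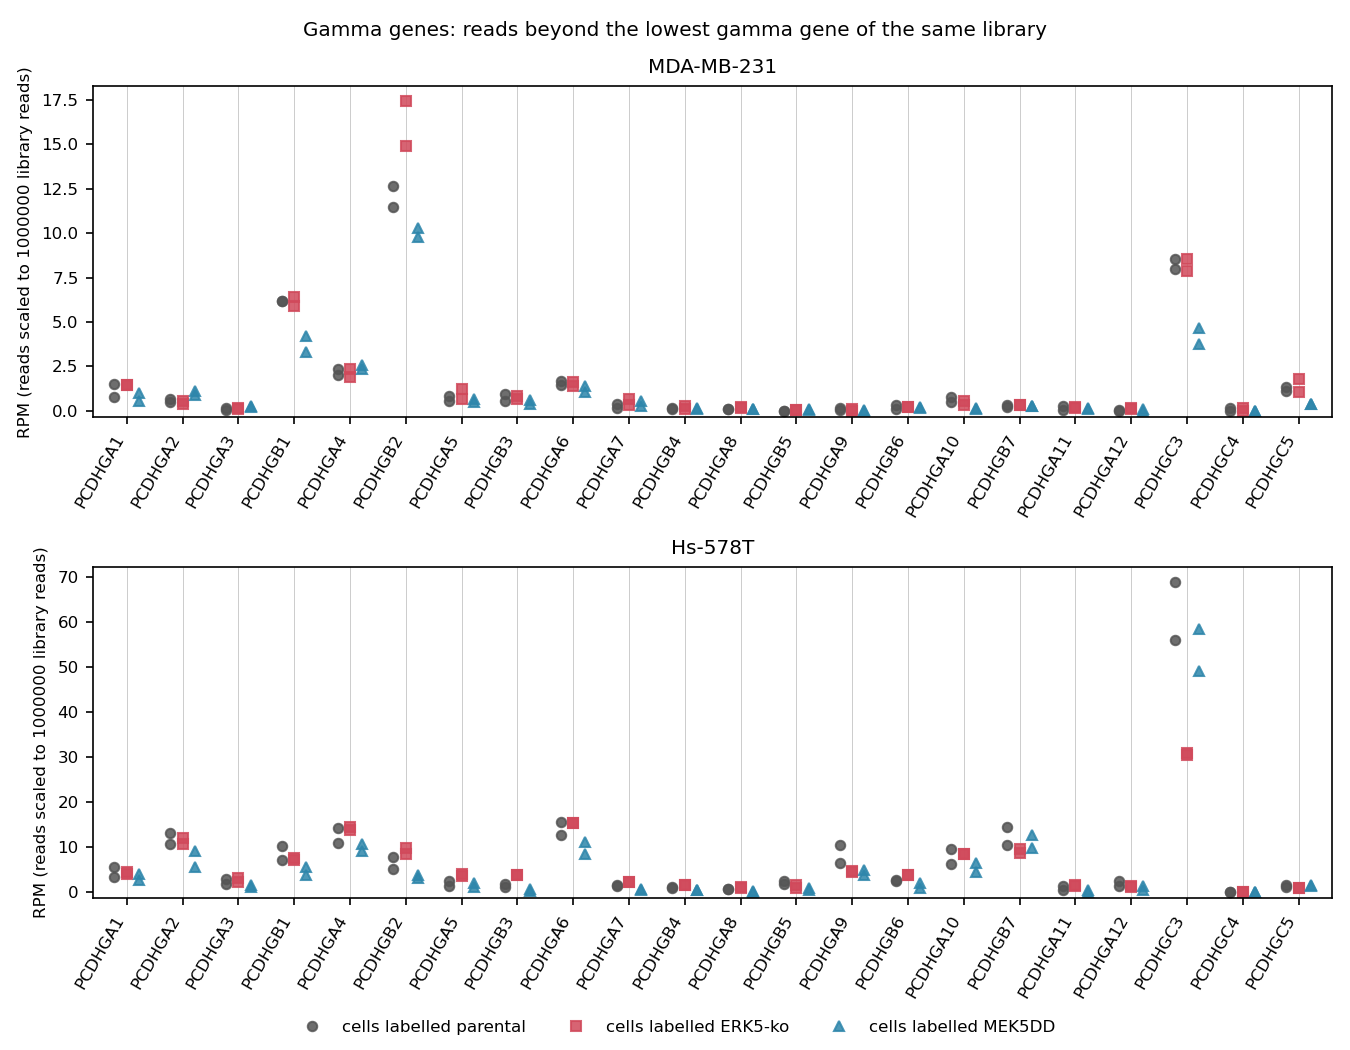
Reads of each gamma gene beyond the lowest gamma gene of the same library, in RPM, by line and label; each point is 1 library, and the vertical scales of the panels differ. PCDHGB2, PCDHGC3 and PCDHGB1 lead in MDA-MB-231, and PCDHGC3 leads in Hs-578T, where its ERK5-ko libraries lie below the parental and MEK5DD ones.

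The alpha cluster was nearly silent in MDA-MB-231 cells except under the MEK5DD label. In the 4 parental and ERK5-ko libraries each alpha gene had 0 to 2 reads, apart from PCDHA1 with 7 in 1 parental library. At 3 reads or fewer in both libraries, which is the floor used for a count of 0, were 14 of 15 genes in parental and 15 of 15 in ERK5-ko cells. In the 2 MEK5DD libraries all 15 genes had 23 to 52 reads. The lowest had 23 and 27, which is the common part, and PCDHAC1, PCDHAC2 and PCDHA13 stood highest above it. PCDHAC1, the first C-type gene of the cluster (ENSG00000248383.4, chr5:140926369-141012344), had 47 and 52 reads against 0 and 2 in parental cells, PCDHAC2 had 34 and 40 against 1 and 1, and PCDHA13 had 36 and 36 against 0 and 2. In RPM, these were ratios of 50.2 (95% exact interval 13.5 to 420.0), 37.5 (10 to 316) and 36.5 (9.74 to 307), which cover counting error only. The reads in these ratios include the common part. Over the cluster the ratios ran from 6.08 for PCDHA1 to 56.8 for PCDHA10, so they describe the cluster and do not set these 3 genes apart. PCDHA6, called higher below, had 23 and 27 reads in these libraries and so none beyond the common part. Beyond the common part PCDHAC1 had 24 and 25 own reads, PCDHAC2 11 and 13 and PCDHA13 13 and 9, against 0 or 1 in each parental library. These genes reach 10 own reads only in the MEK5DD libraries, so no test is given on own reads.

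Hs-578T cells had 6 to 24 reads on each alpha gene in the parental and MEK5DD libraries. Under the ERK5-ko label a run of adjacent genes stood out. PCDHA6 had 65 and 57 reads against 18 and 9 in parental and 16 and 16 in MEK5DD cells, PCDHA3 had 41 and 32 against 14 and 11 and 16 and 14, and PCDHA5 had 29 and 37 against 11 and 10 and 16 and 20. PCDHA4 had 37 and 38 against 12 and 23 and 22 and 24. None of these groups overlapped with the ERK5-ko libraries. In RPM, the ratio to parental cells was 3.9 (95% exact interval 2.55 to 6.16) for PCDHA6, 2.71 (1.64 to 4.67) for PCDHA5, 2.52 (1.58 to 4.15) for PCDHA3, 1.85 (1.22 to 2.85) for PCDHA4 and 1.81 (1.05 to 3.2) for PCDHA7, which had 26 and 18 reads against 12 and 9. The reads include the common part, and PCDHA3, PCDHA4, PCDHA5 and PCDHA7 were named after their values were seen. The intervals cover counting error only. Parental Hs-578T libraries differed by far more over all genes (chi-square per degree of freedom 30.7), so the intervals may be too narrow. The C-type PCDHAC1 had 10 and 11 reads against 10 and 6, a ratio of 1.13 (0.563 to 2.32), and PCDHAC2 had 13 and 15 against 10 and 6, a ratio of 1.51 (0.79 to 2.99), and both intervals include 1. Beyond the common part PCDHA6 had 55 and 46 own reads against 8 and 3, PCDHA3 31 and 21 against 4 and 5, PCDHA5 19 and 26 against 1 and 4, and PCDHA4 27 and 27 against 2 and 17. No test is given on these, since PCDHA3, PCDHA5 and PCDHA6 reach 10 own reads in the ERK5-ko libraries alone.

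**Figure D3:**
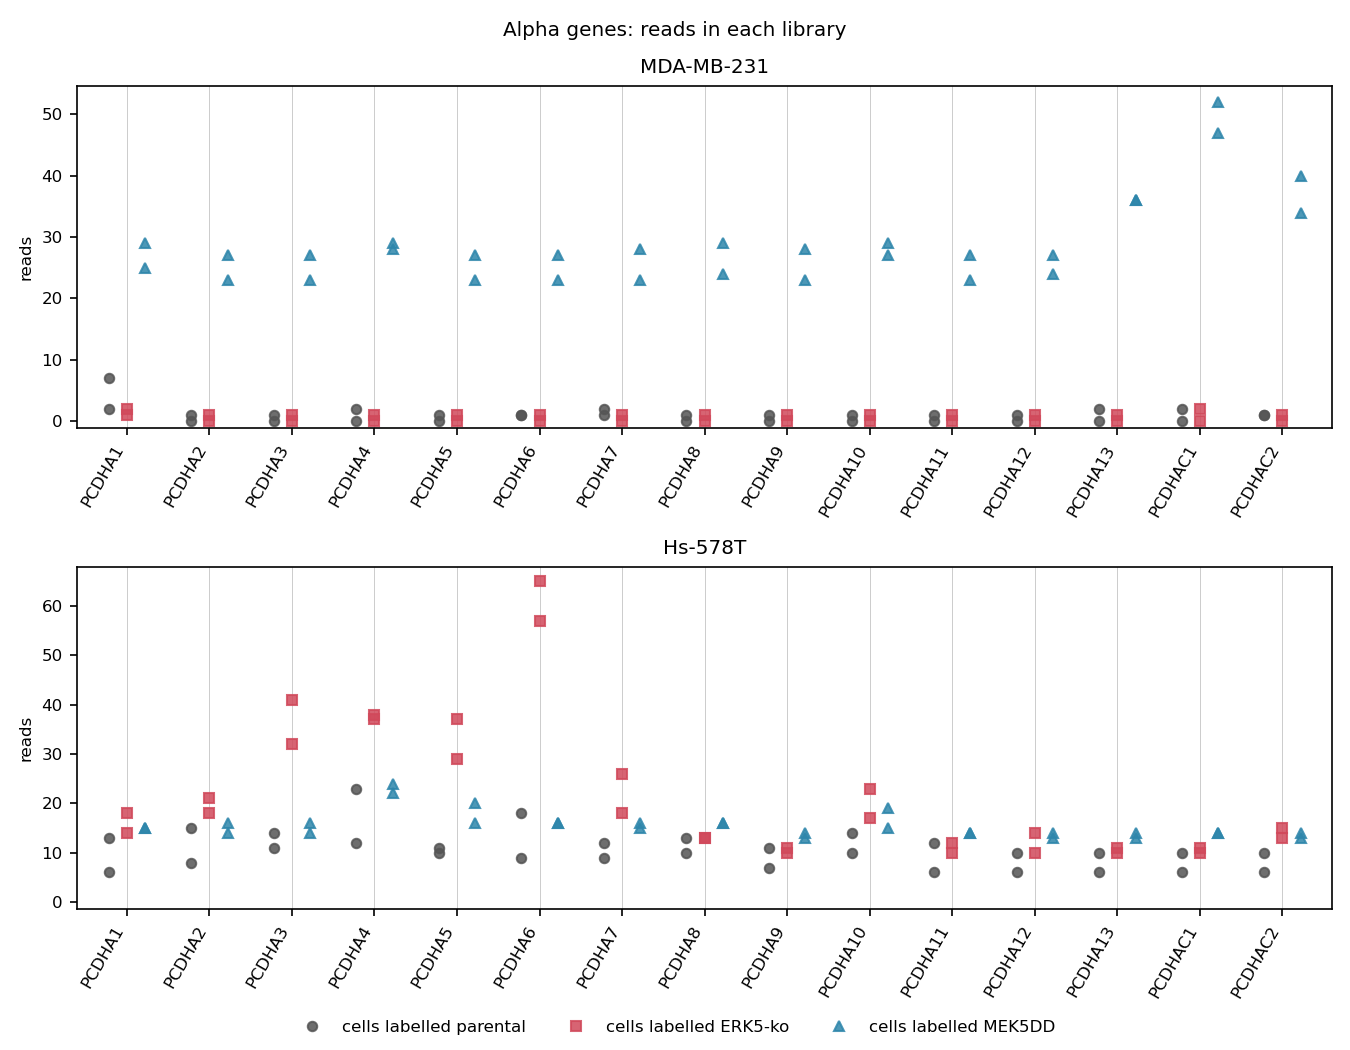
Reads on each alpha gene by line and label; each point is 1 library, and reads on the constant exons are counted for every gene. In MDA-MB-231 only the 2 MEK5DD libraries rise above 7 reads, led by PCDHAC1 with 47 and 52, and in Hs-578T the 2 ERK5-ko libraries lead at PCDHA3 to PCDHA7, with 65 and 57 reads at PCDHA6.

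Beta genes have no exons in common with other members, so their values are given gene by gene, within the limits named above on paralogs and overlapping genes. Summed over 15 genes, they took 27.5 ± 0.0898 RPM (SD, n = 2) in parental, 36.5 ± 0.311 in ERK5-ko and 23.5 ± 0.503 in MEK5DD MDA-MB-231 cells, and 109 ± 23.5, 161 ± 4.69 and 97.2 ± 17.7 in Hs-578T. In both lines the ERK5-ko libraries were the highest and did not overlap with the others. The genes that led the cluster differed between the lines. In MDA-MB-231 they were PCDHB11, PCDHB9, PCDHB10, PCDHB2, PCDHB14 and PCDHB13, all at 0.671 RPKM or more in every library. In Hs-578T they were PCDHB16, PCDHB15 and PCDHB2.

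PCDHB16 (ENSG00000272674.3, chr5:141181399-141186399) was 3.77 and 5.91 RPKM in parental, 13.0 and 12.1 in ERK5-ko and 3.87 and 5.74 in MEK5DD Hs-578T cells. In MDA-MB-231 it was 0.797 and 0.757, 0.917 and 0.666, and 0.381 and 0.196. The ERK5-ko libraries stood alone at the top in Hs-578T, and the MEK5DD libraries alone at the bottom in MDA-MB-231. PCDHB15 was 4.90 and 5.81, 9.67 and 9.49, and 4.24 and 5.02 RPKM in Hs-578T and 0.11 to 0.245 in MDA-MB-231, where 7 to 14 reads were counted. PCDHB2, whose gene model is short, was 4.98 and 6.51, 9.36 and 9.48, and 3.45 and 5.26 RPKM in Hs-578T. In MDA-MB-231, PCDHB2 was 0.719 and 0.711 in parental, 1.05 and 1.16 in ERK5-ko and 1.72 and 1.42 in MEK5DD cells, so that every group stood apart. In parental and MEK5DD Hs-578T cells the levels of these 3 genes overlapped, and in ERK5-ko cells PCDHB16 stood above both others.

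PCDHB6 had opposite orders of the labels in the 2 lines. It was 0.303 and 0.429 RPKM in parental, 0.664 and 0.764 in ERK5-ko and 0.0566 and 0.0491 in MEK5DD MDA-MB-231 cells, the last from 4 reads in each library. In Hs-578T the order turned, with 0.954 and 1.05 in parental, 0.312 and 0.337 in ERK5-ko and 1.35 and 1.53 in MEK5DD cells. None of its groups overlapped within a line. PCDHB11 was 1.42 and 1.53, 2.67 and 2.62, and 0.822 and 0.912 RPKM in MDA-MB-231. In Hs-578T, PCDHB11 was 2.06 and 2.47, 2.57 and 2.38, and 1.31 and 1.58, with parental and ERK5-ko libraries overlapping. PCDHB10 was 1.21 and 1.05, 2.32 and 1.69, and 0.671 and 0.708 RPKM in MDA-MB-231. PCDHB12 was 0.384 and 0.464, 0.908 and 0.988, and 0.536 and 0.657. PCDHB13 was 0.882 and 1.60, 2.62 and 2.61, and 0.898 and 1.04 in Hs-578T, with widely separated parental libraries. PCDHB9 was 2.52 and 3.3, 5.22 and 5.72, and 2.55 and 3.12 in Hs-578T. The other beta genes (PCDHB3, PCDHB4, PCDHB5, PCDHB7, PCDHB8 and PCDHB14) were 0.0382 to 1.2 RPKM in MDA-MB-231 and 0.275 to 4.20 in Hs-578T.

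**Figure D4:**
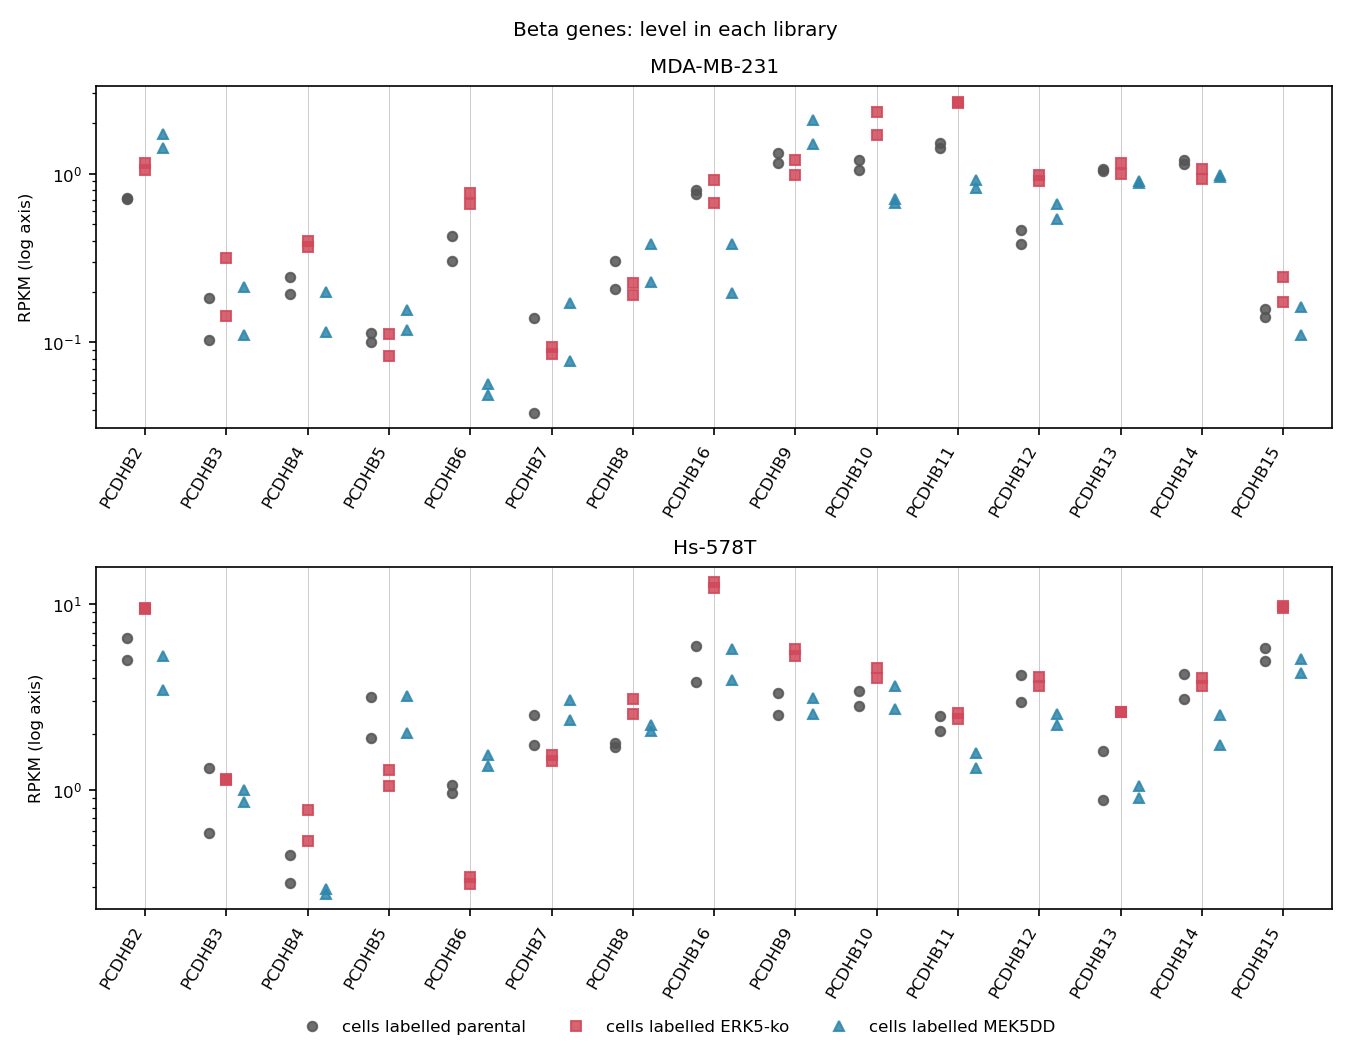
RPKM of the 15 beta genes on a logarithmic axis, by line and label; each point is 1 library. In Hs-578T the ERK5-ko libraries lead at PCDHB2, PCDHB16, PCDHB9, PCDHB13 and PCDHB15, and PCDHB6 shows the reverse order of labels in the 2 lines.

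For the tests, log2(RPKM + 0.5) was fitted with limma over 13737 protein-coding genes with at least 0.5 RPKM in at least 2 libraries, with Benjamini-Hochberg adjustment over all of them. The pseudocount shrinks the differences of low genes. Calls needed an adjusted p under 0.05 together with a fold over 1.5 for higher genes or under 0.5 for lower ones. Of the 52 members, 39 were tested, all 15 beta and 22 gamma genes and 2 alpha genes. PCDHA6 and PCDHB4 passed the filter only through ERK5-ko Hs-578T cells and PCDHAC2 only through MEK5DD MDA-MB-231 cells. Calls of these 3 in any comparison that uses those groups, the line differences included, are partly set by the filter. A further 13 alpha genes were too low to test. The scaling is that of the deposited values.

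In ERK5-ko against parental MDA-MB-231 cells 3 members were higher and 0 lower, where 2.8% of all genes were higher and 1.07% lower. The 3 were adjacent beta genes, PCDHB11 (log2 fold change 0.67, SE 0.117, adjusted p = 0.00264), PCDHB12 (0.65, SE 0.144, adjusted p = 0.01) and PCDHB10 (0.61, SE 0.158, adjusted p = 0.0214). PCDHB6 passed on the p value but not the fold (0.49, adjusted p = 0.0104), and limma voom on recovered reads called it higher (0.96, adjusted p = 0.0159). The PCDHB12 call was lost without parental library 1 (adjusted p = 0.0916) or ERK5-ko library 2 (0.0729), and the PCDHB10 call without parental library 1 (0.0746), parental library 2 (0.15) or ERK5-ko library 1 (0.173). The 22 gamma rows, at log2 differences of 0.25 to 0.35, had adjusted p values of 0.105 to 0.233 and were not called. The median was 0.13 over the 15 beta genes and 0.31 over the gamma rows, against -0.04 over all genes tested.

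In ERK5-ko against parental Hs-578T cells 6 members were higher and 0 lower, where 9.35% of all genes were higher and 3.27% lower. They were PCDHB16 (1.32, SE 0.212, adjusted p = 0.000584), PCDHB13 (0.87, adjusted p = 0.0016), PCDHB9 (0.82, adjusted p = 0.00209), PCDHA6 (0.81, adjusted p = 8.78e-05), PCDHB15 (0.79, adjusted p = 0.000434) and PCDHB2 (0.68, adjusted p = 0.00945). PCDHA6 passed the filter only through these ERK5-ko libraries, so its call is partly set by the filter. Without parental library 1, PCDHB13 was 0.57 and short of the fold and PCDHB2 had an adjusted p of 0.0775. Without ERK5-ko library 2, PCDHB2 had an adjusted p of 0.061. Of the members, 24 passed on the p value alone in the lower direction, where 19.7% of all genes did. They were the 22 gamma rows, at -0.85 to -0.64, with PCDHB5 at -0.84 (adjusted p = 0.00625) and PCDHB6 at -0.87 (adjusted p = 0.000112). The gamma rows rest on the same constant exons, and none reached the fold threshold. Limma voom on recovered reads, which adds no pseudocount of 0.5 RPKM, called PCDHB6 (-1.61, adjusted p = 0.000293) and PCDHB5 (-1.06, adjusted p = 0.0105) lower.

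Against parental MDA-MB-231 cells, the MEK5DD label had 3 members higher and 0 lower, where 7.64% of all genes were higher and 6.31% lower. They were PCDHAC2 (1.07, SE 0.095, adjusted p = 4.23e-06), PCDHB2 (0.77, SE 0.173, adjusted p = 0.00405) and PCDHA6 (0.59, SE 0.099, adjusted p = 0.000571). PCDHAC2 passed the filter only through these MEK5DD libraries, so its call is partly set by the filter. PCDHA6 sat at the fold threshold and fell under it without parental library 2 (0.58) or MEK5DD library 2 (0.58). On the p value alone 23 members were lower, 19 gamma genes and PCDHB6 (-0.64), PCDHB16 (-0.70), PCDHB11 (-0.53) and PCDHB10 (-0.45), where 23.8% of all genes were lower. With a pseudocount of 0.1, PCDHB6 reached -1.60 and PCDHB16 -1.22 and both were called lower.

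Against parental Hs-578T cells, the MEK5DD label had 0 members called in either direction by limma or by limma voom on recovered reads, where 2.9% of all genes were higher and 1.49% lower. At an unadjusted p under 0.05, 2 were higher and 3 lower in each of these fits. On the adjusted p alone PCDHB6 was higher at 0.36 (adjusted p = 0.0327), and PCDHB14 was lower at -0.66 (adjusted p = 0.0127), PCDHB11 at -0.51 (adjusted p = 0.0101) and PCDHB12 at -0.48 (adjusted p = 0.0338). The shares of all genes without the fold threshold are not given here. The counts at the unadjusted p or at the adjusted p alone are thus not read as a result about the members. The own-read voom fit called PCDHGA8, PCDHGA11, PCDHGB3, PCDHGB4 and PCDHGB5 lower, each with at most 1.23% of the own reads of the cluster in parental cells, and all but PCDHGB3 reached 10 own reads in Hs-578T libraries alone. PCDHGA8, PCDHGA11 and PCDHGB4 did so in no MEK5DD library, so their calls here are partly set by the filter. MAP2K5 itself was 1.42-fold higher here, against 13.6-fold in MDA-MB-231.

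**Figure D5:**
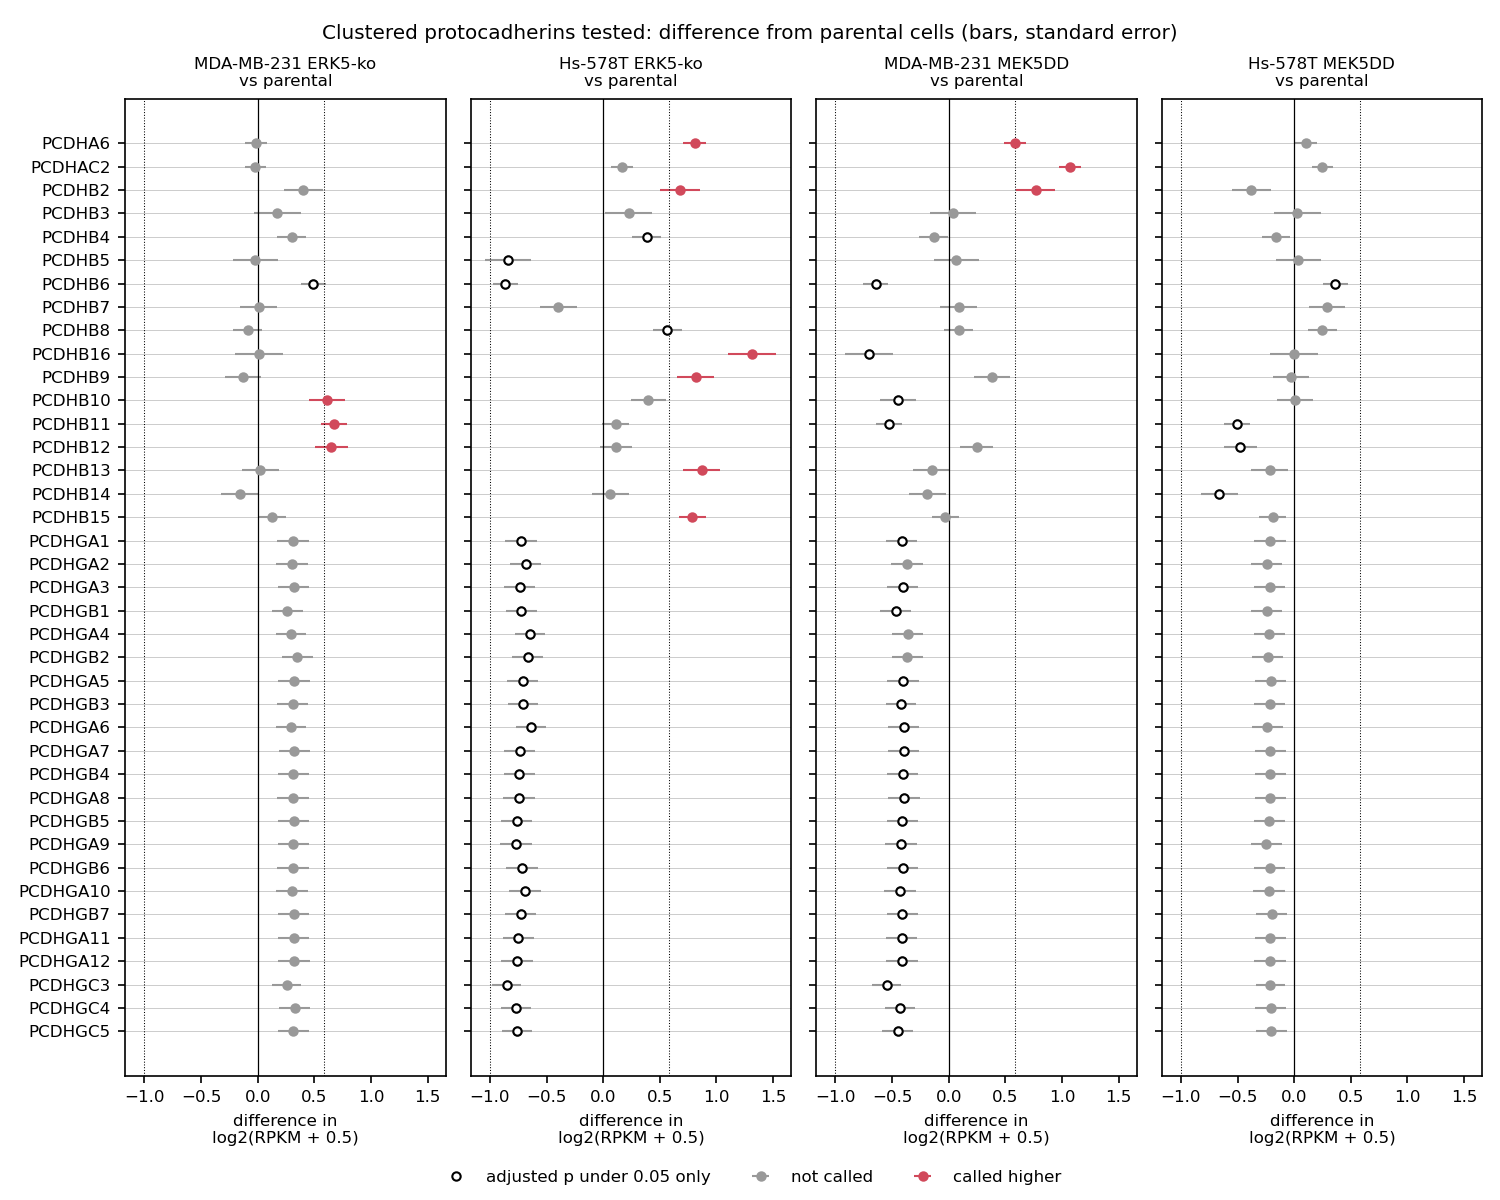
Difference of each of the 39 tested members from parental cells of its line, in log2(RPKM + 0.5), with bars of 1 standard error; dotted lines mark folds of 1.5 and 0.5, red points are called higher and open points pass the adjusted p but not the fold. The 22 gamma genes move as a block in each panel, between -0.85 and -0.64 in ERK5-ko Hs-578T cells, while beta genes spread to both sides.

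The comparison of ERK5-ko with MEK5DD cells uses the same libraries as those above and is not independent of them. In ERK5-ko against MEK5DD MDA-MB-231 cells 26 members were higher and 1 lower, where 17.5% of all genes were higher and 6.12% lower. The higher ones were the 22 gamma rows (0.66 to 0.80) with PCDHB11 (1.2, adjusted p = 5.22e-06), PCDHB6 (1.13, adjusted p = 5.04e-06), PCDHB10 (1.06, adjusted p = 0.000147) and PCDHB16 (0.72, adjusted p = 0.0133), and PCDHAC2 was lower (-1.09, adjusted p = 2.11e-06). The PCDHB16 call was lost without ERK5-ko library 1 (adjusted p = 0.103) or MEK5DD library 2 (0.116). In ERK5-ko against MEK5DD Hs-578T cells 9 members were higher and 1 lower, where 15.3% of all genes were higher and 3.96% lower. The higher ones were PCDHA6 (0.70) and 8 beta genes, led by PCDHB16 (1.32, adjusted p = 0.000382), PCDHB13 (1.09), PCDHB2 (1.06), PCDHB15 (0.98) and PCDHB9 (0.84), and PCDHB6 was lower (-1.23, adjusted p = 4.63e-06). On the adjusted p alone 25 members were lower, the 22 gamma rows (-0.64 to -0.40) among them, where 19.2% of all genes were. The gamma rows thus differed in opposite directions in the 2 lines. On own reads 4 of 21 gamma genes were called higher for MDA-MB-231, near the share of 18.8% over all genes. PCDHGA2, PCDHGA3, PCDHGA4 and PCDHGB5 had negative differences there that were not called. For Hs-578T 13 of 21 were called higher, where 17.7% of all genes were. PCDHGC3, called higher for MDA-MB-231, differed by -0.81 on own reads in Hs-578T (adjusted p = 0.000228, short of the fold threshold).

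Between the parental lines 34 members were higher in Hs-578T and 0 lower, where 23.5% of all genes were higher and 20.7% lower. All 22 gamma rows were higher (1.71 to 2.41), as were 12 beta genes, led by PCDHB15 (3.17, SE 0.121, adjusted p = 3.83e-10), PCDHB2 (2.35, adjusted p = 1.54e-07) and PCDHB5 (2.28, adjusted p = 7.04e-07). PCDHB13 differed by 0.14 (adjusted p = 0.444). PCDHB3, PCDHB5, PCDHB7, PCDHB8 and PCDHB15 reached 0.5 RPKM only in Hs-578T libraries, and PCDHB4 only in ERK5-ko Hs-578T cells. Any calls of these genes as higher in Hs-578T are thus partly set by the filter. The median of all genes tested lay at -0.19 in this comparison and at 0.01 under median-ratio scaling, a shift that left the directions as they were. On own reads Hs-578T had more of PCDHGC3 (2.90, adjusted p = 3.56e-09) and of PCDHGA6 (3.17, adjusted p = 1.01e-07), while PCDHGB2 went the other way at -0.95 (adjusted p = 0.000357) and was short of the fold threshold for lower genes.

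The difference between the lines was tested itself, as the effect in MDA-MB-231 minus that in Hs-578T, on the adjusted p alone. For the ERK5-ko label 25 members were higher and 6 lower, where 18.3% of all genes were higher and 21.5% lower. The 22 gamma rows were higher (0.93 to 1.11), with PCDHB6 (1.36, SE 0.155, adjusted p = 6.16e-05), PCDHB5 (0.82, adjusted p = 0.0383) and PCDHB11 (0.57, adjusted p = 0.0189). The 6 lower ones were PCDHB16 (-1.31, SE 0.3, adjusted p = 0.0054), PCDHB9 (-0.94, adjusted p = 0.00708), PCDHB13 (-0.85, adjusted p = 0.0137), PCDHA6 (-0.82, adjusted p = 0.000862), PCDHB15 (-0.66, adjusted p = 0.0105) and PCDHB8 (-0.66, adjusted p = 0.0145). On own reads the gamma difference was called for only 2 of 21 genes, PCDHGC3 (1.007, adjusted p = 0.00254) and PCDHGB5 (2.60, adjusted p = 0.0457), where 16% of all genes were higher. PCDHGB5 is among the genes with 10 own reads in Hs-578T alone. Leaving out single libraries ended the call of PCDHB5 (adjusted p up to 0.131), PCDHB11 (up to 0.0714) or PCDHB8 (up to 0.0635). The PCDHB5 call was also lost in limma voom on recovered reads (adjusted p = 0.332), with a pseudocount of 0.1 (0.0651) and with all gene types (0.0602), and the PCDHB8 call in limma voom (0.0827). The PCDHB15 call, which sets a gene of 7 to 14 reads in MDA-MB-231 against one of 197 to 582, was lost with a pseudocount of 0.1 (adjusted p = 0.128) and in limma voom on recovered reads (adjusted p = 0.497).

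For the MEK5DD label 4 members were higher and 1 lower, where 21.3% of all genes were higher and 18.2% lower. The higher ones were PCDHB2 (1.15, SE 0.245, adjusted p = 0.0034), PCDHAC2 (0.82, adjusted p = 0.000625), PCDHB12 (0.72, adjusted p = 0.0155) and PCDHA6 (0.48, adjusted p = 0.0175), and PCDHB6 was lower (-1.01, SE 0.155, adjusted p = 0.000413). The PCDHB12 call was lost without parental MDA-MB-231 library 1 (adjusted p = 0.0623) or MEK5DD MDA-MB-231 library 2 (0.0649), and that of PCDHA6 without parental MDA-MB-231 library 1 (0.0511) or 2 (0.0507) or parental Hs-578T library 1 (0.066). PCDHA6 had no reads beyond the common part in MEK5DD MDA-MB-231 cells.

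Genes known to act on the clusters or with their proteins were listed for context. Against parental MDA-MB-231 cells, 2.8% of all genes were called higher and 1.07% lower under ERK5-ko, and 7.64% and 6.31% under MEK5DD. Against parental Hs-578T cells these shares were 9.35% and 3.27% under ERK5-ko, and 2.9% and 1.49% under MEK5DD. Shares at an unadjusted p are not given, so the unadjusted counts below are not read as a result about the lists. Of 28 chromatin regulators, 26 were tested, and the boundary factor CTCF was 8.07 to 23.5 RPKM. In ERK5-ko against parental Hs-578T cells 5 were higher and 0 lower, SMC1A (0.996, adjusted p = 0.00246), SMC3 (0.67, adjusted p = 0.0129) and STAG1 (0.67, adjusted p = 0.0136), all of cohesin, the maintenance DNA methyltransferase DNMT1 (0.82, adjusted p = 0.00184) and the demethylating enzyme TET1 (0.76, adjusted p = 0.000198). TET1 reached 0.5 RPKM in the ERK5-ko Hs-578T libraries alone (0.838 and 0.935), so its call is partly set by the filter. In MEK5DD MDA-MB-231 cells RCOR1, a partner of the repressor REST, the methyltransferase DNMT3B and LRIF1, which works with SMCHD1, were higher and 0 lower. In ERK5-ko MDA-MB-231 and MEK5DD Hs-578T cells 0 were called by limma, with 0 higher and 7 and 4 lower at an unadjusted p under 0.05. Of 21 signalling and cleavage partners, 20 were tested, and against parental cells only CYFIP2, of the WAVE actin-regulating complex, was called, higher in ERK5-ko (0.59, adjusted p = 0.0036) and lower in MEK5DD Hs-578T cells (-1.16, adjusted p = 0.000126). Of 24 non-clustered protocadherins and large cadherins in the data, 13 were tested, and against parental cells 1 was higher and 0 lower in ERK5-ko MDA-MB-231 cells, 5 and 1 in ERK5-ko Hs-578T cells, 4 and 3 in MEK5DD MDA-MB-231 cells and 0 and 1 in MEK5DD Hs-578T cells. PCDH11X, among the 13, reached 0.5 RPKM in the ERK5-ko Hs-578T libraries alone, so any call of it there is partly set by the filter. PCDH1, which lies beside the clusters, was higher in ERK5-ko MDA-MB-231 (1.74, adjusted p = 2.07e-06) and ERK5-ko Hs-578T cells (0.96, adjusted p = 4.11e-05) and lower in MEK5DD MDA-MB-231 cells (-2.78, adjusted p = 4.99e-09). PCDH7 (2.90, adjusted p = 2.2e-07) and FAT3 (2.85, adjusted p = 2.36e-07) were higher in MEK5DD MDA-MB-231 cells. Of 17 tested neighbours on chromosome 5, which include PCDH1, 1 was higher and 0 lower in ERK5-ko MDA-MB-231 cells, 1 higher and 1 (CD14) lower in ERK5-ko Hs-578T cells, 0 higher and 1 lower in MEK5DD MDA-MB-231 cells and 0 in MEK5DD Hs-578T cells by limma, where 0 were higher and 7 lower at an unadjusted p under 0.05. Each is against parental cells. Without PCDH1, CD14 was thus the only neighbour called in these comparisons.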

How the data were processed

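RNA of 12 libraries was analysed, 2 per label and cell line, grouped by the labels. Poly(A) libraries had been made with a stranded mRNA kit from cells at 70% confluence. The authors deposited RPKM values for 32152 genes on GRCh38. The submitters' processing notes name bcl2fastq, Trimmomatic 0.32, TopHat2 2.1.1, R 3.3.1 and DESeq2 1.12.4, and the counting tool, its annotation and its treatment of overlaps are not given in the sources used here. All 12 columns were matched to a sample, and 0 per-sample columns were left out.

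Each RPKM value is a whole number of reads over a length and a library total, which allowed reads and totals to be recovered. All 32152 genes (100.0%) gave whole reads within 0.01 of a read, against 0 of 500 genes with totals 1% off. Limma voom on these reads was an alternative. The main test was limma 3.58.1 (R 4.3.3) on log2(RPKM + 0.5), with 1 mean for each of 6 groups, 6 residual degrees of freedom and a variance that follows the mean level. Benjamini-Hochberg adjustment was made per comparison over all genes tested. The fit was tested on simulated data. The fold thresholds follow the paper. Exact intervals of read ratios are at 95% and cover counting error only, as does the floor of 3 reads. Exons came from GENCODE 29, promoters from RefSeq. Figures were drawn with matplotlib 3.10.9, and Python 3.11.15, SciPy 1.17.1 and pandas 2.3.3 served the other steps.

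The members, gene lists and tests were chosen with earlier results of these data known. Members were named for the 3 highest mean RPKM of each cluster, for being C-type, for the calls of each comparison within a line and for differences between lines. Others named here were chosen after their values were seen, as were the fit on reads beyond the lowest member and the promoter strings. No set test was run. 1 marker gene of the lists is not reported here.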

Additional observations from a re-analysis of the deposited data

Results flagged for a closer look

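Members whose difference under a label was itself different between the lines are listed here, each as the effect in MDA-MB-231 minus that in Hs-578T on the log2(RPKM + 0.5) scale, tested with limma over all genes. For the ERK5-ko label the beta genes PCDHB16 (-1.31), PCDHB9 (-0.94), PCDHB13 (-0.85), PCDHB15 (-0.66) and PCDHB8 (-0.66) and the alpha gene PCDHA6 (-0.82) had the lower effect in MDA-MB-231. PCDHB6 (1.36), PCDHB5 (0.82) and PCDHB11 (0.57) had the higher one. The gamma genes PCDHGC3 (1.11), PCDHGC4 (1.10), PCDHGA9 (1.09), PCDHGB5 (1.08), PCDHGC5 (1.08) and PCDHGB2 (1.02) also had the higher one, but these rows rest largely on the same reads of the constant exons, and of these 6 genes PCDHGC3 and PCDHGB5 passed on reads beyond the lowest gamma gene. The calls of PCDHB15, PCDHB8 and PCDHB5 were lost in limma voom on recovered reads. Those of PCDHB11, PCDHB8 and PCDHB5 were lost with some single libraries left out. PCDHA6 passed the filter only through ERK5-ko Hs-578T cells.

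For the MEK5DD label PCDHB2 (1.15), PCDHAC2 (0.82), PCDHB12 (0.72) and PCDHA6 (0.48) had the higher effect in MDA-MB-231 and PCDHB6 (-1.01) the lower one. Of the beta genes, only PCDHB6 is listed under both labels, with opposite signs. In MEK5DD MDA-MB-231 libraries it rests on 4 reads each. The calls of PCDHB12 and PCDHA6 were lost with some single libraries left out. PCDHAC2 and PCDHA6 each passed the filter through 1 group only.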

How the results depend on the processing

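Of 222 values of the 9 counts under other settings, 194 stayed within 1.5 times the main count and 28 did not. Of 863 values of single named members, 821 kept their call, 40 lost it and 2 changed sign, and the cause was not tested. Both sign changes came on reads beyond the lowest member, PCDHA6 in MEK5DD against parental MDA-MB-231 cells (-0.77) and PCDHGA9 in the line difference of the ERK5-ko label (-0.17). In ERK5-ko against parental MDA-MB-231 cells 0 members were called with a pseudocount of 1 and 0 at a fold of 2, and 1 to 3 with single libraries left out. In ERK5-ko against parental Hs-578T cells 32 were called without a fold threshold, 1 at a fold of 2 and 16 on reads beyond the lowest member, and 6 to 7 with single libraries left out. In MEK5DD against parental MDA-MB-231 cells 5 were called with a pseudocount of 0.1, 1 with a pseudocount of 1, 8 with a filter at 0.1 RPKM, 8 with no filter, 26 without a fold threshold, 1 at a fold of 2, 5 by limma voom on recovered reads and 7 on reads beyond the lowest member, and 2 to 3 with single libraries left out. In MEK5DD against parental Hs-578T cells 4 were called without a fold threshold and 5 on reads beyond the lowest member. In ERK5-ko against MEK5DD MDA-MB-231 cells 4 were called at a fold of 2 and 12 on reads beyond the lowest member, and 26 to 27 with single libraries left out. In ERK5-ko against MEK5DD Hs-578T cells 6 were called with a pseudocount of 1, 35 without a fold threshold, 4 at a fold of 2 and 28 on reads beyond the lowest member, and 8 to 11 with single libraries left out. The line difference had 11 members on reads beyond the lowest member and 29 to 33 with single libraries left out for the ERK5-ko label. For the MEK5DD label it had 15 with a filter at 0.1 RPKM, 18 with no filter, 12 on reads beyond the lowest member and 3 to 8 with single libraries left out. Between parental lines 34 to 35 were called with single libraries left out. A fit of each line alone could give no value between lines. The fit on reads beyond the lowest member held alpha genes that passed its filter through 1 group only. These were PCDHA3, PCDHA5 and PCDHA6 through ERK5-ko Hs-578T cells, and PCDHAC1 and PCDHAC2 through MEK5DD MDA-MB-231 cells. Its counts are thus partly set by the filter. Shares of all genes are not set beside the counts of this paragraph, which are not read as a result about the members.

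The replicate numbers follow consecutive passages, and the labels do not say that equal numbers share a batch. Deviations of equal numbers correlated at 0.1074 to 0.5406 between groups of a line. Fits with a replicate block gave counts of 3, 6, 3 and 0 against parental cells in the order above, 27 and 10 for ERK5-ko against MEK5DD, 34 between parental lines and 32 and 6 for the line differences. Alpha counts near 0 set the limit in MDA-MB-231, where a filter on low values decides how many alpha genes are tested.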

Other observations

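Rows of the same loci outside the rule, all listed as pseudogenes, were read too. PCDHB18P had 77 and 77 reads in parental, 122 and 115 in ERK5-ko and 40 and 61 in MEK5DD Hs-578T cells, and 2 to 5 in the 6 MDA-MB-231 libraries, so its ERK5-ko libraries were the highest of Hs-578T without overlap. PCDHB17P had 9 to 27 reads in Hs-578T and 0 to 2 in MDA-MB-231, with overlapping groups. PCDHB19P had 1 to 9 reads in Hs-578T. PCDHA14, PCDHGB8P and PCDHGB9P had 0 to 5 reads in every library. Reads of pseudogenes may be shared with the beta genes that they resemble, which was not tested.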
